A study of Mus musculus with 6 samples.

Results

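The transcripts described here belong to the p53 response and to growth arrest in mouse liver, measured on 6 one-colour arrays, 3 from mice on a ketogenic diet and 3 from mice on chow. A rule chose them by symbol: every probe set that the platform annotation ties to exactly 1 of 10 named genes. It found 16 of the table's 45101 probe sets, which measure 8 of the 18194 genes so annotated: Cdkn1a, Mdm2, Ccng1, Btg2, Gadd45a, Gadd45b, Gadd45g and Myc. No probe set carried the symbol of the remaining 2 genes, Gdf15 and Bax, which are therefore not analysed here.

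Both groups were livers of C57BL/6 mice that were 8 weeks old when the diets began and were fed for 6 weeks. The ketogenic group ate F3666, a feed very rich in fat and very poor in carbohydrate, and the chow group ate Labdiet 5008, a standard rodent feed. All livers were taken in the morning from animals with free access to food. The design text speaks of RNA from 2 to 3 animals a group and leaves unsaid whether an array held 1 mouse or a pool. The p-values therefore reflect the spread among arrays alone, which may be technical. The labels give no sex.

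The transcription factor p53 is kept scarce in unstressed cells by MDM2, a ubiquitin ligase that p53 itself induces, so the pair forms a feedback loop. When DNA damage, nutrient stress or oncogene activity frees p53, it switches on genes that halt the cell cycle, repair DNA or kill the cell. Cdkn1a encodes p21, the inhibitor of cyclin-dependent kinases that carries much of this arrest, and Ccng1, Btg2 and Gadd45a are further p53 targets. Gadd45b and Gadd45g are relatives of Gadd45a that answer mainly to inflammatory and growth signals, and Myc encodes a growth-promoting transcription factor. In liver these genes are known from regeneration, fasting and injury, and several of them also respond to stress signals without p53.

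Array level overlapped between the diets, with a 2% trimmed mean signal of 54.6, 60.7 and 45.6 on ketogenic arrays 1, 2 and 3 and of 53.1, 46.0 and 39.6 on chow arrays 1, 2 and 3 (two-sided exact permutation p = 0.3). The added hybridization controls were dimmer on ketogenic arrays, with a geometric mean signal of 499.5 ± 18.4 against 641.7 ± 8.53 on chow arrays (SD, n = 3 each, exact permutation p = 0.1, the smallest that 3 against 3 arrays allow). Actin's 3' probe set over its 5' one, which tracks how intact the RNA was, gave 1.59 ± 0.0820 on ketogenic and 2.08 ± 0.107 on chow arrays, with the same exact p. The same ratio of Gapdh was 0.793 ± 0.0187 on ketogenic and 0.839 ± 0.115 on chow arrays (exact permutation p = 0.9). Of these ratios only that of actin set the diets apart, and the hybridization controls did so too. The median log2 change of all kept probe sets was 0.221. For the members, chow array 2 stood apart from the other chow arrays: both probe sets of Cdkn1a and 2 of the 3 of Gadd45b were at least 2-fold brighter there than on either other chow array.

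By their brightest probe sets Gadd45b and Btg2 rose on the ketogenic diet. Another probe set of each did not pass, and these calls were lost in some alternative fits. Ccng1 was higher on every ketogenic array than on any chow array without passing the test. Cdkn1a was bright on all 3 ketogenic arrays and on chow array 2, and dim on chow arrays 1 and 3. Gadd45g was lower on every ketogenic array without passing, Mdm2 was mixed, and Gadd45a and Myc overlapped. In limma's test, adjusted over 22515 probe sets by the Benjamini-Hochberg method with a threshold of 0.05, 3 of the 15 kept member probe sets rose and 0 fell, 10 had an unadjusted p under 0.05, and 14 had a positive log2 change. Over all kept probe sets 4.64% passed in either direction, made up of 4.08% upward and 0.564% downward, and 68.1% had a positive log2 change. The share of all kept probe sets with an unadjusted p under 0.05 was not counted. Counts at that limit, here and below, are therefore a description only. By the brightest probe set of each gene, 2 of 8 member genes rose and 0 fell. Of all genes 5.35% passed, 4.74% upward and 0.615% downward. With so few members, these counts are given as a description, and a probe set that did not pass is not thereby shown to be unchanged. In whole liver, fewer cells of a type and less RNA per cell cannot be told apart.

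Signals of the diets were fully apart on 9 of the 15 kept probe sets, with ketogenic above chow on 8 and below it on 1. Over all kept probe sets 26.7% did not overlap, 21.6% higher and 5.06% lower. A probe set was kept where its mean log2 signal over the 6 arrays reached the median of the table, at a signal of 10.2. Of the 15 kept, 3 had a chow mean under that limit and passed through their ketogenic signals, namely 2 of Gadd45b and 1 of Cdkn1a, so their difference is in part a condition of being kept. The one left out was a dim probe set of Mdm2.

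**Figure D1:**
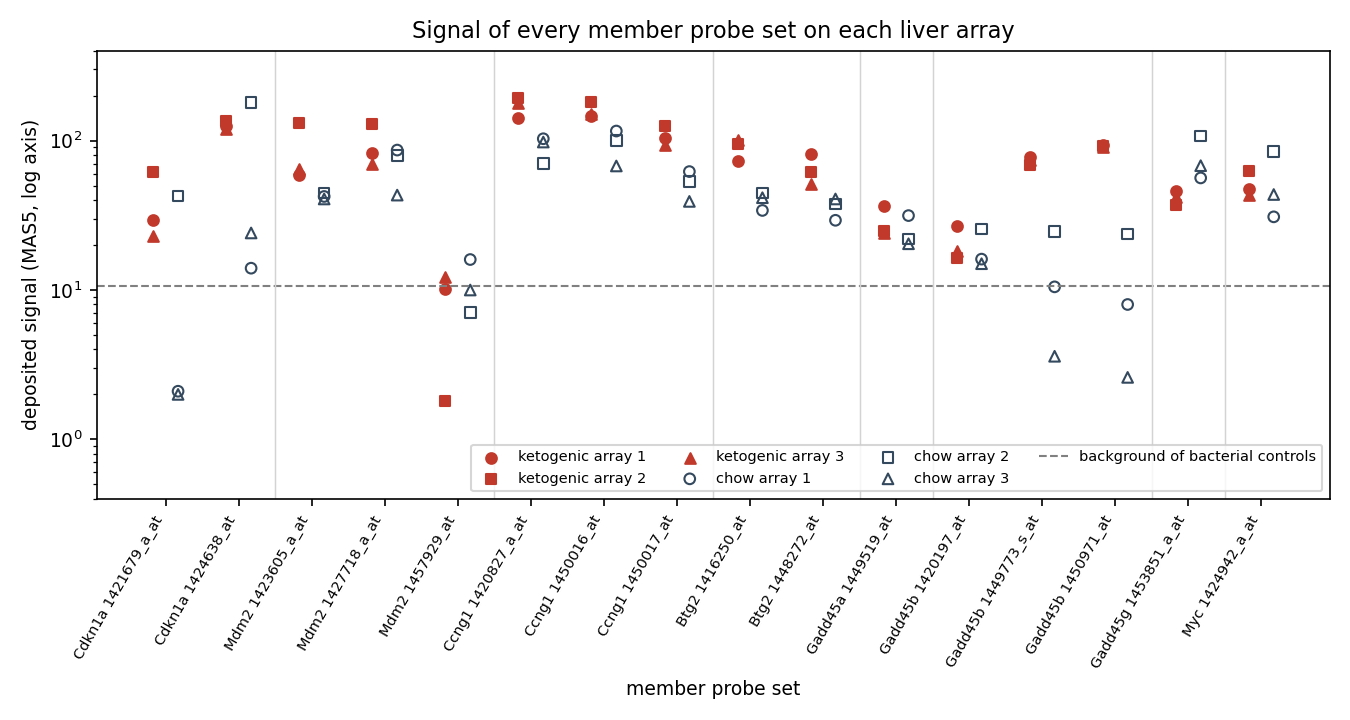
Deposited signal (log axis) of all 16 member probe sets, with a filled red symbol for each of the 3 ketogenic arrays left of an open symbol for each of the 3 chow arrays; the dashed line is the background of 10.7 from bacterial controls. On 1450971_at of Gadd45b the ketogenic arrays sit between 90.6 and 93.4 and the chow arrays between 2.6 and 23.7, and on 1424638_at of Cdkn1a chow array 2, at 179.7, lies above all 3 ketogenic arrays.

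Promoter windows are shown for Gadd45b and Btg2, whose brightest probe sets rose, and for Cdkn1a and Ccng1, 2 p53 targets that did not pass. They let the recognition sequences of the factors named above be seen in place. RefSeq windows on GRCm38.p6, from 250 bases before to 50 bases after an annotated start, existed for 7 of the 8 genes, in 8 windows, since Cdkn1a has 2. Both strands were searched for the p53 decamer (the 10-base unit of a p53 site, by its consensus), for the cyclic AMP response element TGACGTCA bound by CREB and ATF family factors, and for the E-box CACGTG bound by MYC. None of these motifs overlapped another in the windows printed. Capitals mark every match.
Cdkn1a, upstream start, chr17:29090729-29091028, plus strand: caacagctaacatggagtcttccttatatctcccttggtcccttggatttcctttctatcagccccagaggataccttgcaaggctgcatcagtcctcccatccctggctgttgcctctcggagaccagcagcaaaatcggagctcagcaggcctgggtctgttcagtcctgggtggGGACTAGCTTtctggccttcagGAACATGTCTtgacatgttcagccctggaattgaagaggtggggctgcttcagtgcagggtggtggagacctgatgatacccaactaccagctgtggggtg
Ccng1, chr11:40755237-40755536, minus strand: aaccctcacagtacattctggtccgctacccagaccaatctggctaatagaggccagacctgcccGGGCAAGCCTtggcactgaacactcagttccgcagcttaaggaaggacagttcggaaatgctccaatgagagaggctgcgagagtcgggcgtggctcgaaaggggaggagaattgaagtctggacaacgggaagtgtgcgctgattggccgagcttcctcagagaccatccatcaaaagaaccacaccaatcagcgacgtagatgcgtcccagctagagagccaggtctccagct
Btg2, chr1:134079106-134079405, minus strand: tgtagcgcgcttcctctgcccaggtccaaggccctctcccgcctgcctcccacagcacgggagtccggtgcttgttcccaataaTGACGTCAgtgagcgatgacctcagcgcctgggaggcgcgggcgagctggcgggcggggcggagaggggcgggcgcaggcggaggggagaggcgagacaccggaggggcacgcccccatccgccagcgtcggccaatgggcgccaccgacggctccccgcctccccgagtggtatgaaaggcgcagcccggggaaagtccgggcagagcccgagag
Gadd45b, chr10:80929841-80930140, plus strand: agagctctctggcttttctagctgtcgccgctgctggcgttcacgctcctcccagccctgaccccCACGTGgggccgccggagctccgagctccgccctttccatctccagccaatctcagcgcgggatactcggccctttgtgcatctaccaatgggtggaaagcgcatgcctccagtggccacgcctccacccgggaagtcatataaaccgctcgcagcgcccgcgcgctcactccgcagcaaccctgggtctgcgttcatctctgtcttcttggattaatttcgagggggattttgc
The upstream Cdkn1a window held 2 p53 decamers, starting 73 and 51 bases before that start and 12 bases apart. Only exact matches were searched. The 10 bases directly after the second decamer differ from the consensus at their first base alone and so were not marked. In the Ccng1 window the 10 bases directly before the decamer likewise differ at 1 base alone and were not marked. A pair with a spacer of at most 13 bases, the layout of a complete p53 site, occurred in 24 of 32817 such windows of the genome (0.0731%). This start lies 2790 bases upstream of the other Cdkn1a start, whose window held no decamer. Single decamers stood in the windows of Ccng1, Mdm2 and Gadd45a, starting 185, 186 and 40 bases before their starts. At least 1 decamer stood in 8.36% of all windows. Btg2 had a cyclic AMP response element starting 166 bases before its start, a motif found in 1.79% of all windows. Gadd45b and Gadd45g each had 1 E-box, starting 185 and 142 bases before their starts, and 7.15% of all windows had at least 1. A match is a run of letters and not evidence of binding.

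Cdkn1a, the p21 gene, was read by 2 probe sets that gave the same picture. On 1424638_at the signal was 124.5, 136.3 and 119.6 on ketogenic arrays 1, 2 and 3, against 14.0, 179.7 and 24.1 on chow arrays 1, 2 and 3. On 1421679_a_at it was 29.5, 61.5 and 23.0 on the ketogenic arrays, against 2.1, 42.6 and 2.0 on the chow arrays. The ketogenic arrays were alike on the brighter probe set, the chow arrays were not, and chow array 2 lay within or above the ketogenic range on both. The log2 change was 1.69 ± 0.79 (SE) on 1424638_at, with a limma adjusted p = 0.280 and a 95% interval of -0.12 to 3.49. On 1421679_a_at it was 2.62 ± 1.06 (adjusted p = 0.211), and since 2 of the 3 chow arrays and the mean log2 chow signal lay under the background, the ketogenic mean was at least 1.78-fold higher. That bound allows for the background and not for the spread between arrays, and the diets overlapped. Without chow array 2 the log2 changes were 2.79 and 4.08, with limma adjusted p = 0.00585 and 0.00361, and without any other single array the adjusted p lay between 0.277 and 0.527. A filter at the 75th percentile of signal also brought 1424638_at past the threshold (0.0426).

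Mdm2, the ligase that closes the loop on p53, was measured by 3 probe sets that differed. On 1423605_a_at the signal was 59.3, 130.5 and 64.2 on ketogenic arrays 1, 2 and 3, against 42.3, 44.7 and 40.7 on chow arrays. All ketogenic arrays were above all chow arrays there, and ketogenic array 2 was the brightest by at least 2-fold. The log2 change was 0.90 ± 0.33 (SE), with a limma adjusted p = 0.180. On 1427718_a_at, the brightest, the signal was 82.4, 129.2 and 69.9 on ketogenic arrays, against 86.5, 79.7 and 43.2 on chow arrays, and the diets overlapped. Its log2 change was 0.44 ± 0.36 (adjusted p = 0.530, 95% interval -0.38 to 1.26). The dimmest, 1457929_at, lay near the background, at 1.8 to 12.3 on ketogenic and 7.1 to 16.0 on chow arrays, and was not kept. Of the alternatives, scaling to the hybridization controls (0.0309) and the filter at the 75th percentile (0.0407) brought 1423605_a_at past the threshold, and none brought 1427718_a_at past it.

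Ccng1, which encodes cyclin G1, a p53 target that recruits a phosphatase to MDM2, was measured by 3 probe sets that pointed the same way. On 1450017_at the signal was 103.5, 126.2 and 93.9 on ketogenic arrays 1, 2 and 3, against 62.1, 53.4 and 39.2 on chow arrays. On 1420827_a_at it was 142.5, 192.0 and 178.8 on ketogenic arrays, against 103.0, 70.1 and 97.9 on chow arrays. On 1450016_at it was 146.7, 180.3 and 151.4 on ketogenic arrays, against 116.0, 100.6 and 67.7 on chow arrays. On all 3 probe sets every ketogenic array was above every chow array. The log2 changes were 1.08 ± 0.28, 0.93 ± 0.27 and 0.78 ± 0.28 (SE), close to a doubling, with limma adjusted p = 0.0651, 0.0952 and 0.168. The first passed with a common array median (0.0300), a common trimmed mean (0.0334), quantile normalization (0.043) and scaling to the hybridization controls (0.0108), with a filter at the 75th percentile (0.00647) and with a trended robust prior (0.0156). It failed without any 1 array (0.0663 to 0.183).

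Btg2 encodes an antiproliferative protein that p53 induces and that promotes the shortening of messenger RNA tails. On 1416250_at its signal was 72.9, 94.5 and 101.3 on ketogenic arrays 1, 2 and 3, against 34.1, 44.6 and 41.5 on chow arrays. On 1448272_at it was 81.2, 62.1 and 51.2 on ketogenic arrays, against 29.3, 37.6 and 40.7 on chow arrays. Neither probe set overlapped between the diets, and on neither was chow array 2 set apart as it was for Cdkn1a. The first rose by 1.16 ± 0.26 (log2, SE; means of 89.6 ± 14.8 and 40.1 ± 5.39 on ketogenic and chow arrays, SD, n = 3 each), with a limma adjusted p = 0.0417. The second had a log2 change of 0.84 ± 0.28 and adjusted p = 0.135. Leaving out any 1 array ended the call on 1416250_at (0.0805 to 0.122), as did a common array median (0.0706), a common trimmed mean (0.106), quantile normalization (0.144), no filter (0.145) and leaving out suffixed probe sets (0.0507), while the log2 change stayed between 0.84 and 1.52 over all alternatives.

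**Figure D2:**
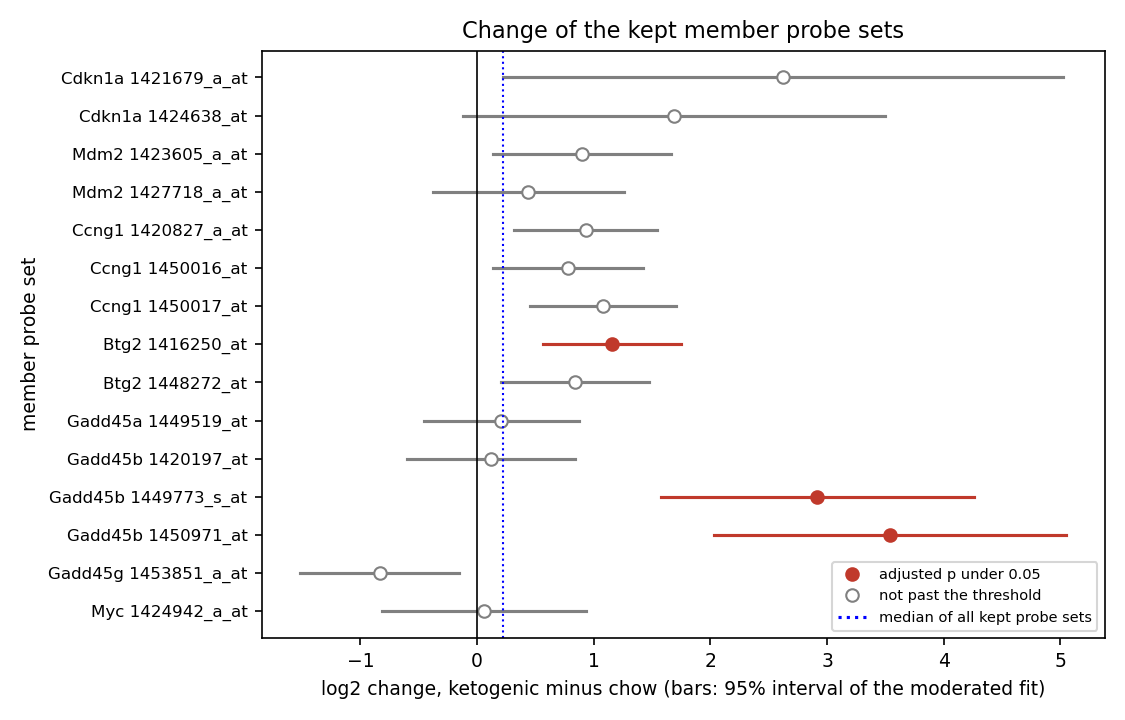
Log2 change, ketogenic minus chow, of the 15 kept member probe sets, with bars for the 95% interval of limma's moderated fit; filled red points passed an adjusted p of 0.05 and the dotted line is the median of 0.221 over all kept probe sets. The 3 called probe sets, 2 of Gadd45b and 1 of Btg2, lie at 3.54, 2.92 and 1.16, and Gadd45g alone lies below 0, at -0.83.

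The 3 GADD45 genes encode small acidic stress proteins that bind p21, proliferating cell nuclear antigen and the kinase MEKK4, and of the 3 only Gadd45b passed the test. On 1450971_at its signal was 93.4, 91.8 and 90.6 on ketogenic arrays 1, 2 and 3, against 8.0, 23.7 and 2.6 on chow arrays. On 1449773_s_at it was 78.0, 69.1 and 74.4 on ketogenic arrays, against 10.5, 24.6 and 3.6 on chow arrays. The ketogenic arrays lay within 1.13-fold of each other on both. Chow array 2 was the only chow array over the background, and with signals raised to the background the chow arrays spanned 2.22-fold and 2.31-fold. The fitted log2 changes, which use the chow signals under the background as deposited, were 3.54 ± 0.66 and 2.92 ± 0.59 (SE), with limma adjusted p = 0.0230 and 0.0297.

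Because the mean log2 chow signal of both Gadd45b probe sets lay under the background, with 2 of the 3 chow arrays below it, the rises are given as at least 6.13-fold and at least 4.82-fold, bounds that allow for the background and not for the spread between arrays. The remaining probe set, 1420197_at, did not show the rise: its signal was 26.7, 16.3 and 18.2 on ketogenic arrays, against 16.1, 25.6 and 15.0 on chow arrays, with a log2 change of 0.12 ± 0.32 (adjusted p = 0.862). Its direction turned under quantile normalization, under a common trimmed mean and without ketogenic array 1 or chow array 3. For 1450971_at the call was lost without ketogenic array 2 (limma adjusted p = 0.0676), ketogenic array 3 (0.0883) or chow array 1 (0.0577), with quantile normalization (0.0635) and with no filter (0.154), and it was kept with the other 3 scalings. For 1449773_s_at it was lost without any 1 ketogenic array or chow array 1, under 3 of the 4 other scalings and with no filter, at 0.0530 to 0.176.

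Gadd45a, the member of the family most closely tied to p53, did not pass. Its 1 probe set, 1449519_at, had signals of 36.3, 24.9 and 24.0 on ketogenic arrays, against 31.5, 21.9 and 20.4 on chow arrays, and the diets overlapped. Its log2 change was 0.21 ± 0.29 (SE; limma adjusted p = 0.727), with a 95% interval of -0.46 to 0.87, and turned to -0.03 under quantile normalization and -0.01 under a common trimmed mean. Gadd45g had signals of 46.3, 37.2 and 42.1 on ketogenic arrays, against 56.3, 107.2 and 68.0 on chow arrays. Every ketogenic array was below every chow array, and chow array 2 was again the highest. The log2 change was -0.83 ± 0.30 (SE; adjusted p = 0.166) and lay between -1.13 and -0.47 over the alternatives, of which a filter at the 75th percentile gave a call (0.0437). A test of Gadd45b against Gadd45g was not run.

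Myc had signals of 47.2, 62.6 and 43.6 on ketogenic arrays 1, 2 and 3, against 30.9, 85.0 and 43.6 on chow arrays. Chow array 2 was the brightest of all 6 and chow array 1 the dimmest. The log2 change was 0.06 ± 0.38 (SE; limma adjusted p = 0.949), with a 95% interval of -0.82 to 0.93. Its sign changed under 3 of the 4 other scalings and without ketogenic array 2, chow array 1 or chow array 3.

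**Figure D3:**
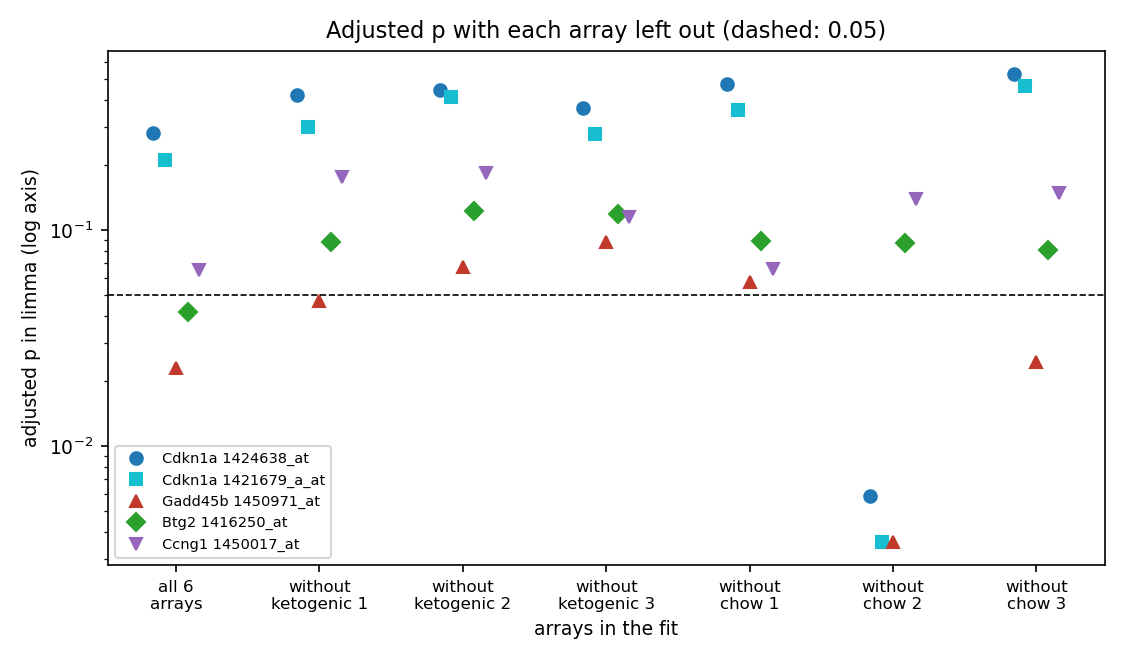
Adjusted p from limma (log axis) of 5 member probe sets with all 6 arrays and with each array left out in turn; the dashed line is 0.05. Both Cdkn1a probe sets pass only without chow array 2 (0.00585 and 0.00361), Btg2 only with all 6 arrays (0.0417), and Ccng1 in none of these fits.

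Other genes of the pathway were taken from lists and represented by their brightest kept probe set. Of 27 kept further p53 targets 2 rose and 0 fell, against 4.74% of all genes rising, with a list median of 0.369 against 0.235 for all genes. Zmat3, a zinc finger protein that binds RNA, averaged 42.3 ± 4.67 on ketogenic and 14.8 ± 5.30 on chow arrays (SD, n = 3 each), a log2 change of 1.56 ± 0.31 (SE; limma adjusted p = 0.0267). Phlda3, a p53-induced brake on AKT signalling, averaged 53.4 ± 8.09 on ketogenic and 20.5 ± 2.90 on chow arrays, a log2 change of 1.38 ± 0.25 (adjusted p = 0.0218). The count fell to 0 with no filter and without any 1 ketogenic array or chow array 2, to 1 without chow array 3 and with a common trimmed mean or quantile normalization, and reached 8 under hybridization control scaling. Under the other 3 scalings 1 further target fell.

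Of 10 kept regulators of p53, 0 passed in limma and 1 had an unadjusted p under 0.05. Trp53 itself is not analysed here. The brightest, Hipk2, a kinase that phosphorylates p53, averaged 277 ± 32.8 on ketogenic and 160 ± 39.6 on chow arrays, a log2 change of 0.81 ± 0.27 (SE; limma adjusted p = 0.140), and its 6 other kept probe sets ranged from -0.24 to 0.93. Among 14 kept genes of the BCL2 family, which decides on cell death and to which Bax belongs, 0 passed and 3 had an unadjusted p under 0.05. Their brightest, the survival factor Mcl1, had a log2 change of 0.51 ± 0.25 (adjusted p = 0.307), while 2 of its 5 other probe sets passed, with the 5 between 0.32 and 1.30. Of 3 kept genes of the BTG and TOB family next to Btg2, 0 passed and 1 had an unadjusted p under 0.05. The brightest, Tob1, had a log2 change of -0.19 ± 0.28 (adjusted p = 0.732), which turned to 0.17 when scaled to the hybridization controls and to 0.25 as the mean of its 2 probe sets.

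The inhibitor p21 acts on cyclins and their kinases. Of 15 kept G1 cyclins, their kinases and inhibitors 2 rose and 0 fell, against 4.74% of all genes rising. On 9 of the 15 all ketogenic arrays were above all chow arrays, against 21.6% of all kept probe sets, a share counted by probe set and not by gene. The list median was 0.675 against 0.235 for all genes. Ccnd1, or cyclin D1, which opens G1, had signals of 378.9, 671.9 and 443.7 on ketogenic arrays, against 88.5, 58.6 and 70.6 on chow arrays, and rose by 2.76 ± 0.30 (log2, SE; limma adjusted p = 0.00352), with its 2 other probe sets also past the threshold. This call held under all 18 alternatives. Cdkn2c, or p18, an inhibitor of the kinases that cyclin D activates, rose to 97.6 ± 15.2 on ketogenic arrays, against 45.8 ± 2.87 on chow arrays, by 1.08 ± 0.24 (adjusted p = 0.0430), a call lost without any 1 array (0.0700 to 0.189), with a common trimmed mean (0.0576), quantile normalization (0.0806) or no filter (0.137), and without suffixed probe sets (0.0530). The list count was 1 without any 1 array, with no filter, with a common trimmed mean or quantile normalization and without suffixed probe sets. It reached 8 under hybridization control scaling.

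Of 16 kept proliferation genes 6 rose and 0 fell, against 4.74% of all genes rising, and the list median was 1.40 against 0.235 for all genes. Of the 16, 5 had a mean log2 chow signal under the filter and were kept through their ketogenic signals, among them 4 of the 6 that rose (Mcm6, Mki67, Top2a and Ccna2), so their difference is in part a condition of being kept. Mcm6, a helicase subunit of DNA replication, had signals of 58.2, 133.0 and 43.9 on ketogenic arrays, against 3.9, 3.0 and 2.3 on chow arrays, a rise of at least 6.55-fold over the background (limma adjusted p = 0.00179). Mki67, the proliferation antigen, rose at least 2.93-fold and Top2a, a topoisomerase of dividing cells, at least 3.38-fold, though its other kept probe set had a log2 change of 0.12. Cdk1, Ccna2 and Cdc20, which act in mitosis and its approach, also passed. The count was 5 without ketogenic array 1, 4 without ketogenic array 2 or chow array 3 and 2 without ketogenic array 3, 4 with no filter, 2 with a filter at the 75th percentile, and 5 to 13 over the scalings. The proliferation list was chosen with earlier results known, and its count is a description.

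MYC's partners and targets did not pass: 0 of 13 kept genes of the MYC network and 0 of 15 kept MYC targets, with 2 and 1 at an unadjusted p under 0.05 and medians of -0.00589 and 0.442. Mlxipl, a glucose-sensing relative of MYC's partners, had a log2 change of -0.01 ± 0.28 (SE; limma adjusted p = 0.994), whose sign depended on the scaling. Ldha, lactate dehydrogenase, averaged 4049 ± 536 on ketogenic and 2536 ± 315 on chow arrays, a log2 change of 0.67 ± 0.25 (adjusted p = 0.177). Of 5 kept kinases of the pathway that GADD45 proteins switch on, 0 passed and 1 had an unadjusted p under 0.05, and Mapk14, the stress kinase p38 alpha, had a log2 change of 0.07 ± 0.26 (adjusted p = 0.909), with a sign that depended on the scaling.

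Among 10 kept regulators of the stress response, a signalling system that can induce growth arrest genes without p53, 4 rose and 0 fell, against 4.74% of all genes rising, with a list median of 1.09 against 0.235 for all genes. Chac1, which degrades glutathione, averaged 115 ± 18.9 on ketogenic and 30.6 ± 4.25 on chow arrays, a rise of 1.91 ± 0.26 (log2, SE; limma adjusted p = 0.00750). Atf3, a stress-induced transcription factor, had signals of 43.4, 92.0 and 69.1 on ketogenic arrays, against 2.5, 16.1 and 8.4 on chow arrays, and rose at least 5.32-fold (adjusted p = 0.0248). It too was kept through its ketogenic signals, and with no filter its adjusted p was 0.158. On this transcript too chow array 2 was the brightest chow array. Atf5, its relative, rose by 1.59 ± 0.34 (adjusted p = 0.0350). The count was 1 without ketogenic array 2 or 3 or chow array 3, 2 without ketogenic array 1 or without suffixed probe sets, 0 with no filter, and 2 to 8 over the scalings.

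**Figure D4:**
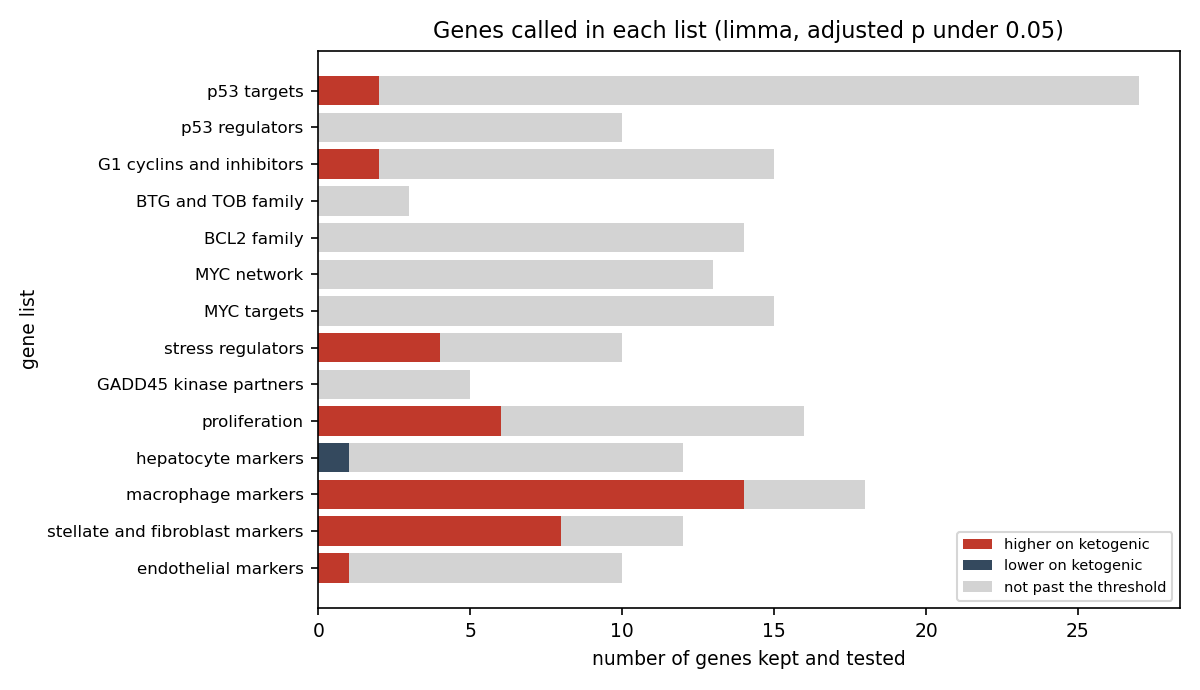
Number of kept genes in each list that were higher (red) or lower (dark) on ketogenic arrays or not past the threshold (grey) in limma. Macrophage markers have 14 of 18 higher, proliferation has 6 of 16 and the further p53 targets 2 of 27, against 4.74% of all genes.

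Whole liver holds several cell types, so the lists of their markers were read on the same arrays. Of all genes 4.74% rose and 0.615% fell. Of 12 kept hepatocyte markers 1, Cps1, fell and 0 rose, and the list was bright on every array, with Apoa1, the main HDL protein, at 9014 ± 699 on ketogenic and 10170 ± 539 on chow arrays, and its summed signal was 55754 to 64859 on ketogenic and 70458 to 74047 on chow arrays. Of 18 kept macrophage markers 14 rose, and their summed signal was 7532 to 9374 on ketogenic and 1697 to 2121 on chow arrays. Their brightest, Csf1r, the receptor on which macrophages depend, averaged 1132 ± 187 on ketogenic and 406 ± 81.3 on chow arrays, and 1 marker, Itgam, lay under the background on both diets. Of 12 kept stellate and fibroblast markers 8 rose, with sums of 3518 to 5176 on ketogenic and 1257 to 1601 on chow arrays. Col1a1 among these 8, and Gpnmb among the macrophage markers that rose, were kept through their ketogenic signals. Endothelial markers had 1 of 10 higher, with sums of 1564 to 1894 on ketogenic and 815 to 1245 on chow arrays. Neutrophil markers had 3 of 7 higher, S100a8, S100a9 and Csf3r, all kept through their ketogenic signals, while the other 4 had negative log2 changes and did not pass. The brightest of these, Elane, was at -0.87 ± 0.39 (SE; limma adjusted p = 0.260), the list median was -0.628, and the list had sums of 126 to 156 on ketogenic and 102 to 134 on chow arrays. Of 4 cholangiocyte and 4 lymphocyte markers 0 passed in limma, with 0 at an unadjusted p under 0.05. The cholangiocyte sums were 97.4 to 107.2 on ketogenic and 61.3 to 85.1 on chow arrays, and did not overlap. The lymphocyte sums were 66.7 to 121.7 on ketogenic and 52.4 to 90.7 on chow arrays, and overlapped. The part of these cells in the rises of Gadd45b, Btg2, Ccnd1 and the proliferation genes was not tested.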

How the data were processed

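Liver RNA was hybridised to 6 one-colour Affymetrix arrays. The deposited values are signal intensity on a linear scale, 1 per probe set. The submitters' processing notes name GCOS and MAS5, without versions or a scaling target, and array levels differ. They were kept as deposited.

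Signals were raised to a floor of 1.1 (10th percentile of the table) and log2-transformed. Probe sets with a mean at or above the table's median and no control role were kept, 22515 in all. Symbols came from the platform annotation, which gave 1 symbol for 34958 probe sets, several for 932 and listed no symbol for 9211; 34754 matched RefSeq by gene ID and 0 changed. The two-sided test was limma (version 3.58.1, R 4.3.3; lmFit, then eBayes); errors are moderated SE or SD. The fit was tested on simulated data. Single measures per array had exact permutation tests. The background of 10.7 is each array's 95th percentile over 27 bacterial controls, averaged over arrays on the log2 scale. Where 1 diet's mean log2 signal lay under it, signals were raised to it and the smaller of the ratio of means and of geometric means is given. Such bounds do not allow for the spread between arrays. Arrays give no read depth; their number limits the precision.

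Replicates were numbered in accession order and pair no samples. The members, gene lists and tests were chosen with earlier results of these data known. Named genes are all members, up to 3 called genes per list with the largest change and no overlap between diets, or else the brightest, and the brightest of each main marker list; Cdk1, Ccna2, Cdc20 and the values of further markers were named after their values were seen. Alternatives were 4 other scalings, 2 floors, 2 filters, a trended robust prior, leaving out suffixed probe sets, 2 summaries per gene and each array left out.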

Additional observations from a re-analysis of the deposited data

How the results depend on the processing

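No called member probe set changed direction under the alternatives in which it was tested, 18 for Btg2 1416250_at, 17 for Gadd45b 1450971_at and 14 for Gadd45b 1449773_s_at. Many of these could not turn it. Changing the filter, the prior or the choice of probe sets leaves the log2 change as it was. Leaving out an array cannot reverse diets that do not overlap, so no conclusion on direction is drawn from such alternatives. The counts given are of all probe sets higher and lower (918 and 127 as deposited), of member probe sets (3 and 0), of member genes (2 and 0) and of genes in the 10 pathway lists together (14 and 0). With a common array median 312 probe sets were lower, 1 member gene was higher and 2 list genes were lower. With a common trimmed mean these were 403, 1 and 2. With quantile normalization 354 probe sets were lower, 1 member probe set and 0 member genes were higher, and 2 list genes were lower. Scaling to the hybridization controls gave 4995 probe sets, 8 member probe sets and 49 list genes higher. With no filter 140 probe sets were higher and 38 lower, 0 member probe sets and 0 member genes passed, and 5 list genes were higher. With a filter at the 75th percentile, which drops Gadd45b, 269 probe sets were lower, 6 member probe sets were higher and 1 lower, 1 member gene was lower (Gadd45g) and 2 list genes were lower. A trended robust prior gave 1578 probe sets higher and 294 lower, 5 member probe sets higher, and 22 list genes higher and 1 lower. Without suffixed probe sets 536 probe sets were higher, with 1 member probe set and 1 member gene. In fits per gene 1 list gene was lower. Leaving out 1 array gave 291 to 895 probe sets higher and 39 to 107 lower, 0 to 4 member probe sets and 0 to 2 member genes higher, and 4 to 12 list genes higher. For these shifts the cause was not tested. For the 4 lists with genes called, 34 of 72 counts moved by over 1.5 times. No paired analysis was possible because the labels carry no replicate numbers. The small number of arrays and signals near the background for Gadd45b and Cdkn1a on chow limit the precision.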

Other observations

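Among 22515 kept probe sets, 238 (1.06%) were at least 2-fold brighter on chow array 2 than on both other chow arrays, and 4 of these were the member probe sets of Cdkn1a and Gadd45b named in the results. Of the 15 kept member probe sets 9 were highest on chow array 2 among the chow arrays, against 23.6% of all kept probe sets. On ketogenic array 2, 609 (2.70%) were at least 2-fold brighter than on both other ketogenic arrays, among them 1421679_a_at of Cdkn1a and 1423605_a_at of Mdm2. On chow array 3, 1441 (6.4%) were at least 2-fold dimmer than on both other chow arrays. Among them were 1449773_s_at and 1450971_at of Gadd45b, whose signals on that array lay under the background.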
